A study of Mus musculus with 12 samples.

Results

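The transcripts described here are those of the glucose transporter Slc2a1 and of 9 enzymes of glycolysis, Hk1, Hk2, Pfkl, Aldoa, Pgk1, Pgam1, Eno1, Pkm and Ldha. They were chosen by symbol and are 10 of the 27179 genes in the deposited count table. All 10 passed the filter on low counts, as did 13131 genes in all. Polyadenylated RNA was sequenced from sorted C57BL/6 mouse B cells in 6 groups of 2 pools, each pool holding several mice. Plasmablasts (PB) were collected on day 5 after a boost of NP-KLH in PBS, a hapten-protein antigen without adjuvant, from Myb fl/fl CD23-cre T/+ mice (Myb KO, 9 mice) and from Myb fl/fl mice with no cre (Myb control, 13 mice). Germinal centre (GC) B cells of the same 2 genotypes were collected on day 12 after NP-KLH in alum, from 5 mice each. In a separate experiment GC B cells were collected on day 7 after immunisation from Moz fl/fl AID-cre T/+ mice (Moz KO, 14 mice) and from AID-cre T/+ mice (Moz control, 11 mice). CD23-cre acts in mature B cells and AID-cre in activated B cells. The Myb control lacks the cre that its knockout carries, so cre and the loss of Myb cannot be told apart.

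Glycolysis takes glucose to pyruvate in the cytosol. Slc2a1 (GLUT1) carries glucose into the cell, hexokinases and phosphofructokinase prime it with phosphate, aldolase splits the sugar, the enzymes from phosphoglycerate kinase to pyruvate kinase yield ATP and pyruvate, and lactate dehydrogenase A turns pyruvate into lactate. The transcription factors Myc and HIF-1 are known to raise many of these genes, and GC B cells divide rapidly, whereas plasmablasts are given over to antibody secretion.

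The libraries held 8285934 to 24801297 counts. Immunoglobulin transcripts took at least 65.0% of the counts in every PB library, against 1.59 to 9.16% in GC libraries. Values below are therefore CPM, counts relative to library size, after TMM scaling, which corrects for the space such transcripts fill. Summed over 7 GC B-cell markers, the CPM was 62.2 to 75.4 in PB libraries and 1036 to 1894 in GC libraries. Over 7 plasmablast markers it was 105072 to 143940 in PB libraries and 1072 to 7316 in GC libraries. Naive follicular B-cell markers summed to 43.6 to 208 CPM in PB and 206 to 562 CPM in GC libraries, T-cell markers to 5.03 to 8.41 and 6.66 to 11.8 CPM, and myeloid markers to 21.3 to 68.3 and 6.71 to 37.9 CPM. The list for NK and plasmacytoid dendritic cells, which holds Bst2, a gene that plasma cells also express, summed to 157 to 338 CPM in PB and 13.6 to 34.9 CPM in GC libraries, and erythroid markers to 1.15 to 2.42 and 0.406 to 1.77 CPM. The part of other cells in the values below was not tested. Counts over the whole Myb gene, scaled, were 3.10 to 3.11 CPM in Myb KO PB and 4.13 to 4.64 CPM in Myb control PB, and 11.6 to 13.0 CPM in Myb KO GC and 11.5 to 14.0 CPM in Myb control GC pools. Kat6a, which encodes MOZ, was at 66.4 to 93.7 CPM in Moz KO and 73.4 to 82.0 CPM in Moz control pools. The floxed exons were not given in the sources used here. A whole-gene count includes parts outside a deletion, so neither knockout can be checked this way. In bulk RNA fewer cells of a type and less RNA per cell cannot be told apart.

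The promoters of Ldha and Hk1 are shown because these 2 genes stand at opposite ends of the PB to GC comparison below. Each is the RefSeq window on GRCm38.p6 from 250 bases before to 50 bases after a transcript start, 5′ to 3′ on the gene's strand. Ldha lies on the plus strand (window chr7:46845554-46845853) and Hk1 on the minus strand (window chr10:62379859-62380158). Capitals mark ACGTG on either strand, the core of the hypoxia response element, and CACGTG, the E-box that Myc can bind, is 2 overlapping such matches.
Ldha: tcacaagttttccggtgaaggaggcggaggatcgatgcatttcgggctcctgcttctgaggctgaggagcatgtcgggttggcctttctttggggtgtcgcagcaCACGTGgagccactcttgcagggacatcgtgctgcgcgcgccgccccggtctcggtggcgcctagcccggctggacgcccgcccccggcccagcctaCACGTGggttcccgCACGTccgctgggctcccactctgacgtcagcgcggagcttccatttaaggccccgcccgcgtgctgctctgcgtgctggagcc
Hk1: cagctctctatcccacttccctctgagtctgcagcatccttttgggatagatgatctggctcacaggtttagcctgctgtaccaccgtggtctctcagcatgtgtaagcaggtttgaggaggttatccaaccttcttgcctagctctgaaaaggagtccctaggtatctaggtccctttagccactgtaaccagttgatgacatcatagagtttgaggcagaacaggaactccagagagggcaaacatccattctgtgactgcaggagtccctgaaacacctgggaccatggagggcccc
The Ldha window held 5 matches to ACGTG, 4 of which made up 2 copies of CACGTG. The Hk1 window held 0. Ldha and Hk1 have 2 listed promoters each, of which 1 is shown. Among the 10 genes, 6 had ACGTG in the promoter chosen for having the most GENCODE coding transcript starts within 100 bases, and 19.67% of 27025 genes had it in their first listed promoter. Counting any listed promoter of a gene, a count added after the first was seen because the choice for Eno1 was a tie, 8 of 10 had ACGTG, against 21.78% of all genes. CACGTG was found in 1 of the 10 genes, Ldha, and in 8.09% of all genes with any listed promoter. In the chosen windows Hk2 and Pgk1 held 2 matches to ACGTG each, and Slc2a1, Aldoa and Pgam1 held 1 each. Those of Eno1 and Pkm, both lower in PB, held 0, as did those of Hk1 and Pfkl. The 2 genes shown therefore do not stand for the 10. A match is a description of the letters in the window only.

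On levels per kilobase of gene model (RPKM), which can be set side by side between genes, Aldoa stood first in control PB at 129 ± 8.15 (SD, n = 2 pools), then Pkm at 75.0 ± 2.61 and Ldha at 42.3 ± 6.26. In control GC B cells the same 3 genes led at 185 ± 35.3 for Aldoa, 181 ± 47.8 for Ldha and 167 ± 18.8 for Pkm, and these 3 did not differ beyond their spread. Eno1 followed in control GC at 45.8 ± 8.48 RPKM, whereas in control PB Pfkl, at 16.4 ± 0.429, stood above Eno1, at 12.5 ± 1.10. The lowest in control PB was Pgam1 at 1.37 ± 0.487 RPKM, and in control GC B cells Pgam1 at 3.10 ± 0.776 and Hk2 at 3.46 ± 0.0531 did not differ beyond their spread. The order in the Moz experiment was close to this, with Aldoa at 183 ± 2.22, Ldha at 171 ± 18.1 and Pkm at 153 ± 5.03 RPKM in Moz KO GC and at 188 ± 49.0, 188 ± 47.3 and 162 ± 33.3 RPKM in Moz control GC. Several of these transcripts have copies elsewhere in the genome. Of all 50-base windows of the transcript, 72.2% in Eno1, 68.0% in Pgk1, 41.5% in Pgam1, 34.4% in Pkm, 16.7% in Ldha and 13.5% in Aldoa occur in another GENCODE gene, against 2.55% or less in Hk1, Slc2a1, Pfkl and Hk2. The rule for reads that match several places was not given in the sources used here, so the levels of the first group are uncertain and its order beside other genes may not hold. Comparisons of a gene with itself across pools rest on the same counting.

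**Figure D1:**
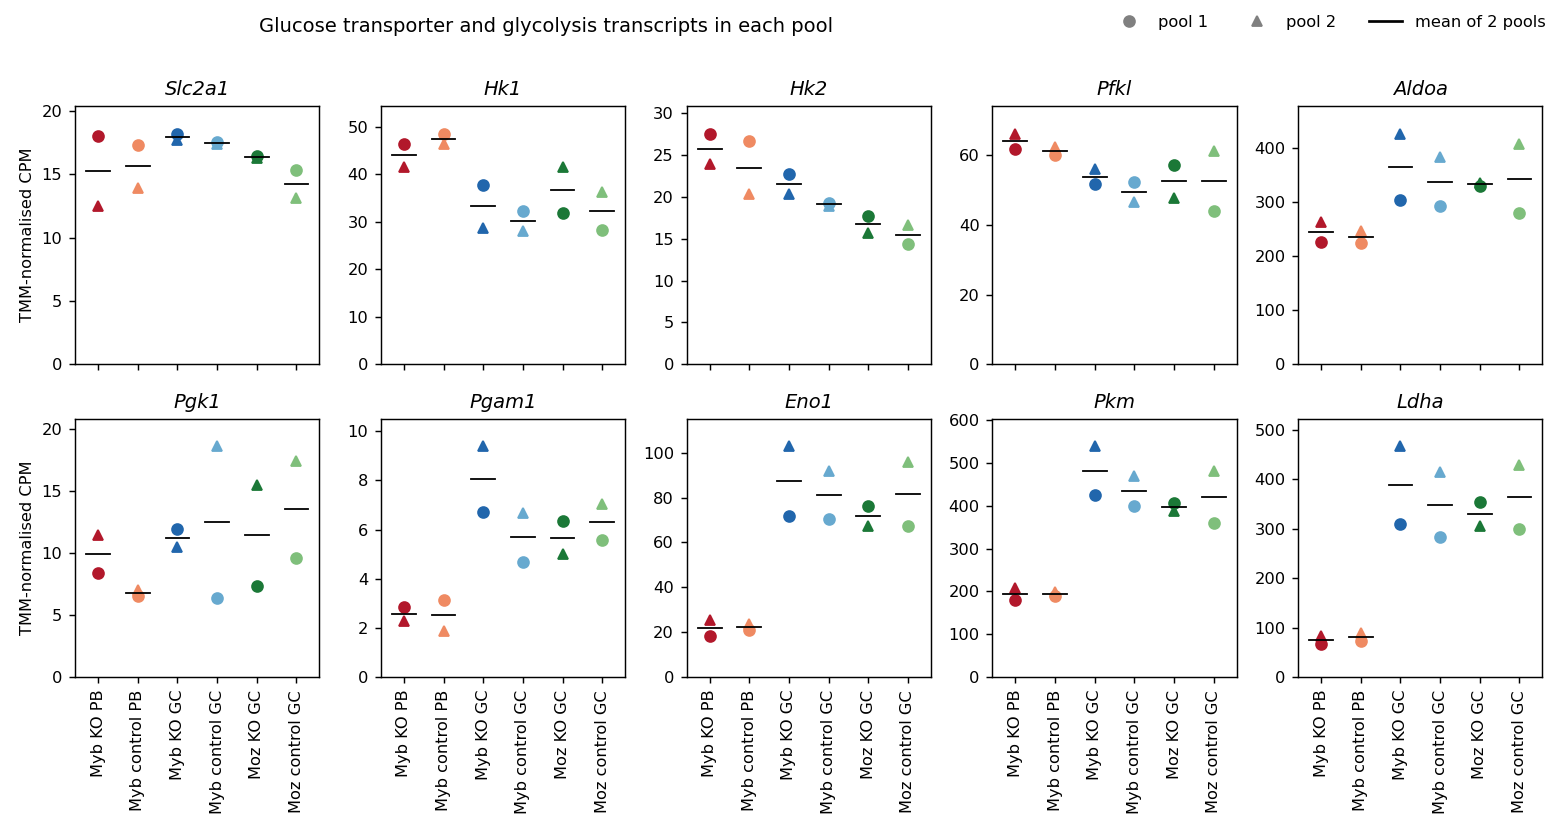
Each panel is 1 gene, with TMM-normalised CPM on a linear axis from 0 and the 6 groups along the bottom. Circles and triangles are the 2 pools of a group and lines their means. Ldha, Eno1, Pkm and Pgam1 lie lower in all 4 PB pools than in all 8 GC pools, and the knockout pools lie among or next to their control pools.

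The question with the largest answer was how plasmablasts differ from GC B cells. Ldha and Eno1, and by less Pkm and Pgam1, were lower in PB, whereas Aldoa, Pgk1 and the 4 genes of the entry steps were not called lower. In control mice 4 of the 10 transcripts were lower in PB (Pgam1, Eno1, Pkm and Ldha) and 1 was higher (Hk1), at an adjusted p under 0.05 in edgeR's quasi-likelihood test. The share of all tested genes called lower was 28.1% and called higher 25.0%, 53.2% in all, so most tested genes differed between these cells, and the members' counts must be read against that. In Myb KO mice the same 4 symbols were lower and 0 were higher, where 27.2% of all genes were lower and 24.4% higher, 51.6% in all. The 10 log2 differences had a median of -0.70 in control and -0.41 in Myb KO mice, against -0.17 over all tested genes in both. PB and GC pools were not made on shared dates and differ in day and in the boost, so cell type, date and schedule cannot be told apart.

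At the entry steps, Slc2a1 was at 18.0 and 12.5 CPM in Myb KO PB and 17.3 and 13.9 CPM in control PB, against 18.2 and 17.7 CPM in Myb KO GC and 17.5 and 17.4 CPM in control GC. The control PB pools lay just below the control GC pools, whereas in Myb KO 1 PB pool fell within the GC range. The log2 difference in control mice was -0.16 with a 95% interval from -0.63 to 0.32.
Hk1, the hexokinase of most tissues, was at 46.5 and 41.7 CPM in Myb KO PB and 48.6 and 46.4 CPM in control PB, against 37.9 and 28.8 CPM in Myb KO GC and 32.2 and 28.1 CPM in control GC. All 4 PB pools lay above all 4 GC pools of the Myb experiment, although 1 Moz KO pool, at 41.5 CPM, came near the lowest PB value. The log2 difference was 0.66 ± 0.22 (SE; edgeR adjusted p = 0.0238) in control mice and 0.40 ± 0.22 (adjusted p = 0.142) in Myb KO mice. With the experiment date as a block within each cell type the Myb KO value passed, at 0.41 (adjusted p = 0.00899). That block takes the spread between dates out of the error although PB and GC share no date, so its p for PB against GC leaves out variation that bears on the comparison. The control call was lost without GC control pool 2 (0.54, adjusted p = 0.123), PB control pool 1 (0.61, adjusted p = 0.0885) or PB control pool 2 (0.67, adjusted p = 0.0606), and without the filter on low counts (0.58, adjusted p = 0.0571).
Hk2, the inducible hexokinase, was at 27.5 and 23.9 CPM in Myb KO PB and 26.6 and 20.3 CPM in control PB, against 22.7 and 20.3 CPM in Myb KO GC and 19.3 and 18.9 CPM in control GC. Within each genotype the PB pools lay above the GC pools, and the log2 differences of 0.26 in Myb KO and 0.30 in control mice did not pass (adjusted p = 0.298 and 0.220).
Pfkl, the liver-type subunit of phosphofructokinase, which commits sugar to glycolysis, was at 61.8 and 66.2 CPM in Myb KO PB and 60.0 and 62.3 CPM in control PB, against 51.8 and 55.9 CPM in Myb KO GC and 52.2 and 46.6 CPM in control GC. The PB pools again lay above the GC pools of the Myb experiment without overlap, but the Moz GC pools, at 44.1 to 61.3 CPM, reached into the PB range. The differences of 0.25 and 0.31 on the log2 scale did not pass (adjusted p = 0.318 and 0.218).

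In the middle of the pathway, aldolase A (Aldoa) was at 226 and 263 CPM in Myb KO PB and 225 and 246 CPM in control PB, against 303 and 426 CPM in Myb KO GC and 292 and 383 CPM in control GC. All PB pools lay below all GC pools, and the log2 differences were -0.58 in Myb KO (adjusted p = 0.0810) and -0.52 in control mice (adjusted p = 0.110). With the date as a block within cell type both passed, at -0.56 (adjusted p = 0.00366) and -0.51 (adjusted p = 0.00643), and the Myb KO value passed without Myb KO GC pool 1 (-0.81, adjusted p = 0.0420).
Pgk1, which makes the first ATP of the pathway, was at 8.44 and 11.5 CPM in Myb KO PB and 6.56 and 7.03 CPM in control PB, against 11.9 and 10.5 CPM in Myb KO GC and 6.43 and 18.6 CPM in control GC. The control GC pools stood far apart, on either side of the PB pools, and the interval of the control log2 difference ran from -1.97 to 0.21. The difference passed without control GC pool 1 (-1.47, adjusted p = 0.0202) and without the filter on low counts (-0.96, adjusted p = 0.00451), and turned to 0.06 (adjusted p = 0.936) without control GC pool 2.
Pgam1, the phosphoglycerate mutase of most tissues, was at 2.86 and 2.30 CPM in Myb KO PB and 3.14 and 1.88 CPM in control PB, against 6.72 and 9.38 CPM in Myb KO GC and 4.68 and 6.69 CPM in control GC. The groups did not overlap, but the PB values rest on 15 to 35 reads a pool. Its log2 difference was -1.64 ± 0.35 (adjusted p = 0.00212) in Myb KO and -1.15 ± 0.35 (adjusted p = 0.0161) in control mice. The control call was lost without control GC pool 2 (-0.89, adjusted p = 0.103) or control PB pool 2 (-0.87, adjusted p = 0.107).

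Among the last steps, Eno1 and Ldha showed the largest differences of the 10. Pkm differed by less than Pgam1 in Myb KO mice and by about as much in control mice. Eno1, the main enolase, was at 18.4 and 25.5 CPM in Myb KO PB and 20.8 and 23.6 CPM in control PB, against 71.7 and 103 CPM in Myb KO GC and 70.7 and 92.0 CPM in control GC. Every GC pool lay above every PB pool, the Moz pools at 67.3 to 95.8 CPM included. Eno1 was 3.97-fold lower in Myb KO PB than in Myb KO GC (log2 -1.99 ± 0.26, adjusted p = 8.19e-05) and 3.66-fold lower in control PB than in control GC (-1.87 ± 0.26, adjusted p = 0.000117).
Pkm, pyruvate kinase of muscle and proliferating cells, whose 2 splice forms share this count, was at 180.4 and 209 CPM in Myb KO PB and 190.2 and 199.8 CPM in control PB, against 426 and 538 CPM in Myb KO GC and 399.7 and 469 CPM in control GC. The PB pools were close to each other and far below the GC pools, with log2 differences of -1.31 ± 0.23 (adjusted p = 0.000579) in Myb KO and -1.16 ± 0.23 (adjusted p = 0.00129) in control mice.
Ldha was at 67.7 and 82.9 CPM in Myb KO PB and 73.0 and 90.1 CPM in control PB, against 309 and 466 CPM in Myb KO GC and 284 and 414 CPM in control GC. This was the largest difference of the 10, 5.15-fold lower in Myb KO PB (log2 -2.36 ± 0.29, adjusted p = 4.99e-05) and 4.28-fold lower in control PB (-2.10 ± 0.29, adjusted p = 0.000109). Of all tested genes 10.1% in Myb KO and 11.6% in control mice had a lower log2 difference than Ldha, so differences of this size were common between these cells. The calls of Eno1, Pkm and Ldha held under each of 10 other scaled settings and left-out pools in both genotypes.

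**Figure D2:**
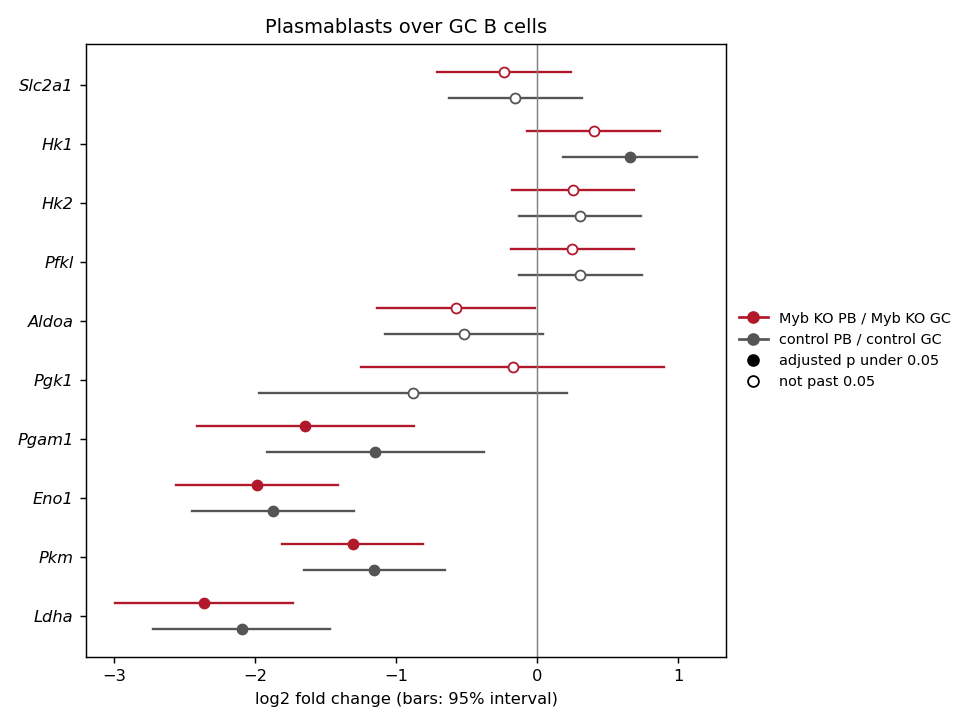
Log2 fold change of PB over GC B cells for each gene, Myb KO (red) above control (grey), with 95% intervals as bars and filled points where the adjusted p is under 0.05. Hk1, Hk2 and Pfkl lie right of 0 and Pgam1, Eno1, Pkm and Ldha left of -1 under TMM scaling, the only scaling drawn. With the total count as library size, not drawn here, all 10 were below 0.

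The sign of the entry steps depends on the scaling. With the total count as library size, where the immunoglobulin reads of PB count in full, the median of all tested genes moved to -2.04 in control and -2.21 in Myb KO mice, all 10 members were called lower in both, and Hk1, Hk2 and Pfkl turned to -1.23, -1.57 and -1.58 in control mice. A change of library size shifts all genes by nearly the same amount, so values relative to the median of all genes could hardly move. Relative to it, Ldha was at -1.93 under TMM and -1.94 with the total count, and Hk1 at 0.82 under both, in control mice. Without the filter on low counts, where more genes set the median, Ldha was at -2.17 and Hk1 at 0.58. Ratios of 2 transcripts within a pool need no scaling, and those given here were chosen after the values were seen. Per kilobase, Ldha over Hk1 was 3.41 and 4.65 in Myb KO PB and 3.51 and 4.53 in control PB, against 19.1 and 37.8 in Myb KO GC and 20.6 and 34.5 in control GC. Pkm over Pfkl was 4.18 and 4.51 in Myb KO PB and 4.54 and 4.59 in control PB, against 11.8 and 13.8 in Myb KO GC and 10.9 and 14.4 in control GC. Both ratios were lower in every PB pool than in every GC pool, the Moz pools included. They describe these 4 genes, which were picked from the differences above, and not the pathway. Hk2 over Hk1 overlapped, at 0.358 to 0.484 in PB and 0.309 to 0.575 in GC pools.

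**Figure D3:**
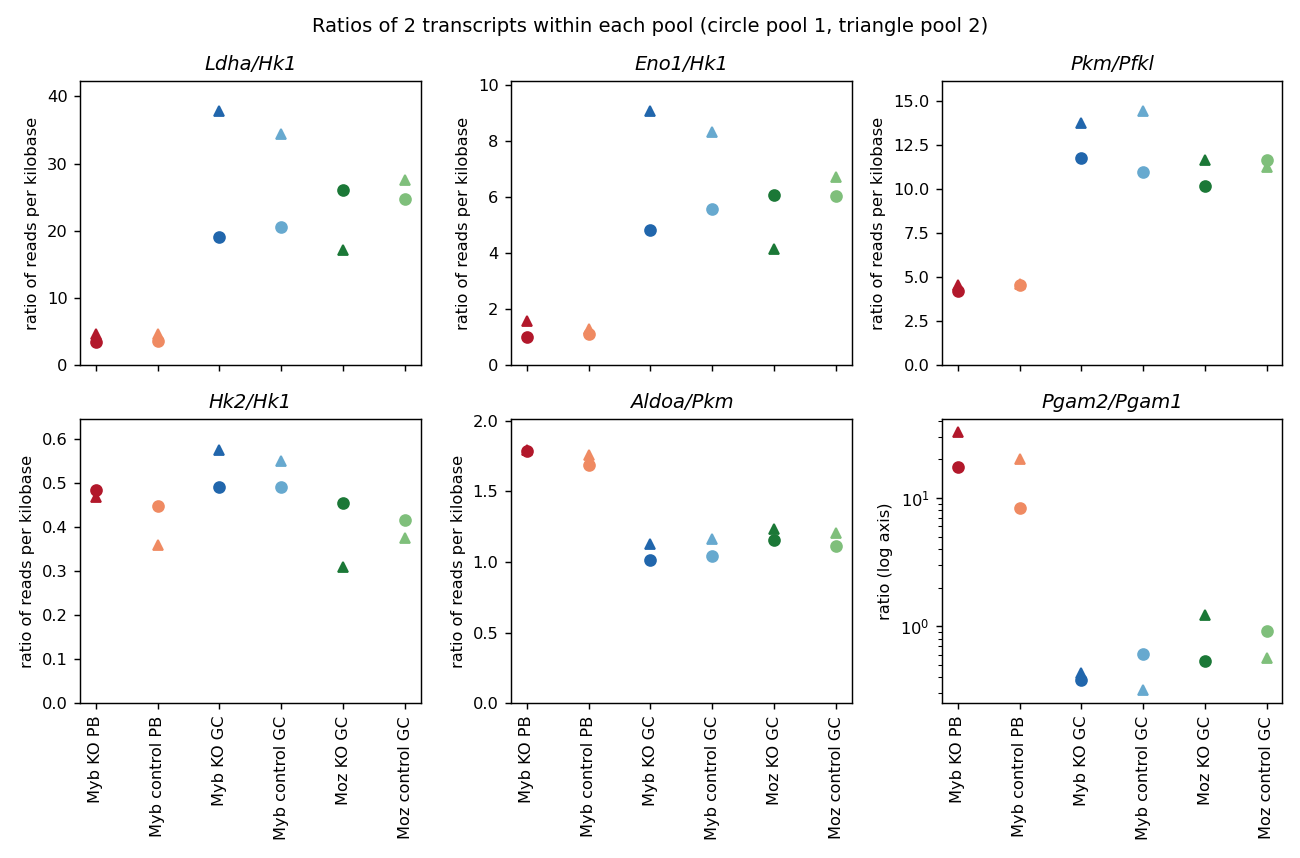
Ratio of the reads per kilobase of 2 transcripts in each pool, by group, on linear axes from 0 except for Pgam2 over Pgam1, which has a log axis. Ldha over Hk1 is 3.41 to 4.65 in PB pools and 17.2 to 37.8 in GC pools, and the Hk2 over Hk1 panel shows the overlap.

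Alternative genes for the same step were set beside the members as shares of a family's reads per kilobase, 4 PB against 4 GC pools of the Myb experiment, in exact two-sided permutation tests that cannot go below p = 0.0286 before adjustment over 6 families. Each side merges knockout and control pools that share dates and deviate together, so its 4 pools are not independent and these p-values are too small. None passed. Slc2a1 held 78.1% ± 4.44 of Slc2a1 and Slc2a3 in PB and 68.0% ± 4.19 in GC pools (SD, n = 4 each; exact adjusted p = 0.0571). Eno1 held 90.0% ± 1.65 of the 3 enolases in PB and 95.3% ± 2.13 in GC pools, and Aldoa 96.6% ± 0.316 and 98.0% ± 0.701 of Aldoa and Aldoc (exact adjusted p = 0.0571 for each). Hk1 held 68.0% ± 2.85 and 65.0% ± 1.55 of the hexokinases (exact adjusted p = 0.0857), and Pfkl 30.8% ± 1.85 and 28.5% ± 2.23 of the phosphofructokinases (exact adjusted p = 0.240), the rest being mostly Pfkp. Ldha held 99.8% or more of Ldha and Ldhb in every pool. Without division by length the exact adjusted p was 0.0429 for Hk1, Aldoa, Eno1 and Slc2a1. Of these only Hk1 had a changed unadjusted p, 0.0286 instead of 0.0571, and its tie with the others lowered their adjusted p. The mutases stood apart: Pgam2, known as the muscle form, was at 26.9 and 40.8 RPKM in Myb KO PB and 14.3 and 20.6 RPKM in control PB, against 1.41 and 2.19 RPKM in Myb KO GC and 1.54 and 1.16 RPKM in control GC. Its ratio to Pgam1 was 8.32 to 32.6 in PB and 0.317 to 1.22 in GC pools, and Pgam1 shares 41.5% of its windows with other genes whereas Pgam2 shares 0%.

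Around the members, genes of glucose metabolism moved both ways in control PB over control GC. The counts of the lists stand against the 25.0% of all tested genes called higher and 28.1% called lower. Of 11 other glycolysis genes tested, 4 were higher and 3 lower, Pgam2 (log2 3.67), Pfkm, the muscle phosphofructokinase (2.31), and Hk3 (1.92, from 28 reads in PB and 10 in GC) among the first, and Gapdh (-1.88) among the second. The Hk3 call was lost in DESeq2, without the filter and without control GC pool 2 or control PB pool 1 (adjusted p = 0.0513 to 0.317), and the Gapdh call without any 1 of the 4 control pools (adjusted p = 0.0591 to 0.147). Gapdh, glyceraldehyde-3-phosphate dehydrogenase, shares 82.5% of its windows with other genes and had only 31 reads in control PB and 162 in control GC, so its low level here is uncertain. Of 8 other carriers 1 was higher, Bsg (2.63), the partner of the lactate carriers, and 2 were lower, the lactate carrier Slc16a1 (-1.71) and the glucose carrier Slc2a3 (-1.05). Of 19 regulators 4 were higher and 6 lower. Epas1 (3.71, from 40 reads in PB and 4 in GC), which encodes HIF-2 alpha, and Pfkfb2 (2.29) were higher. Pfkfb1 (-2.39), like Pfkfb2 an enzyme that sets the level of an activator of phosphofructokinase, and Myc (-1.68) were lower. Hif1a, a gene of HIF-1, was added after the values were seen. It was at 38.2 to 42.9 CPM in control PB and 94.1 to 104 CPM in control GC. Other regulators went the other way. Arnt was at 45.6 to 48.5 CPM in control PB and 33.9 to 35.6 CPM in control GC. Txnip was at 226 to 300 CPM in control PB and 79.6 to 87.3 CPM in control GC. Of 13 genes for the entry of pyruvate into mitochondria 4 were higher and 4 lower. Pdk2, a kinase that shuts off pyruvate dehydrogenase, was at 8.02 and 9.59 RPKM in control PB and 0.123 and 0.0712 RPKM in control GC, Mpc2, a subunit of the mitochondrial pyruvate carrier, differed by 1.89 and Pdk1 by 1.31, whereas Pdha1, a subunit of pyruvate dehydrogenase, was lower (-1.04).
Of 8 genes of the pentose phosphate pathway 1 was higher, H6pd (4.02), the form in the endoplasmic reticulum, and 3 were lower, Tkt (-1.88), Pgd (-1.58) and Pgls (-0.85). The Pgls call was lost in DESeq2, with RLE scaling, without immunoglobulin genes and without either control GC pool or control PB pool 1 (adjusted p = 0.0571 to 0.255). Of 9 genes of gluconeogenesis and glycogen 4 were higher, Gbe1 (1.74), Pck2 (1.61), G6pc3 (0.92) and Pgm2 (0.67), and 1 was lower. Without control GC pool 1 or control PB pool 2 the calls of G6pc3 (adjusted p = 0.0510 to 0.0842) and Pgm2 were lost, that of Pgm2 also without the filter (adjusted p = 0.0597 to 0.121). Of 15 hypoxia targets outside glycolysis 6 were higher and 4 lower. Anxa2 (-5.48) and Ndrg1 (-3.69) were lower, while Vegfa was at 1.27 and 2.29 RPKM in control PB and 0.0167 and 0 RPKM in control GC, and P4ha2 at 0.536 and 0.375 RPKM in control PB and 0 and 0.0688 RPKM in control GC. The P4ha2 call was lost without any 1 of the 4 control pools (adjusted p = 0.0556 to 0.198). The medians of the 7 lists ran from -0.36 to 0.36, against -0.70 for the members and -0.17 for all tested genes. In Myb KO mice, where 24.4% of all tested genes were higher and 27.2% lower, the counts for the 7 lists, in the same order, were 4 higher and 3 lower, 2 and 3, 2 and 7, 3 and 3, 2 and 2, 3 and 0, and 6 and 4.

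**Figure D4:**
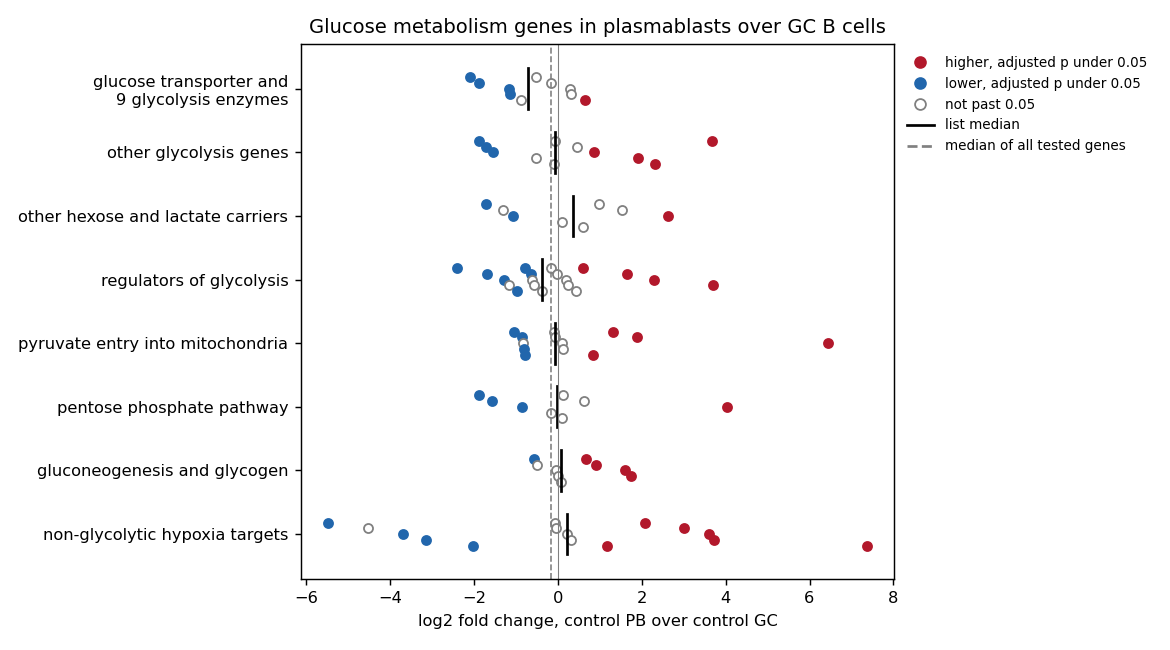
Log2 fold change of control PB over control GC for each tested gene of the members and of 7 lists, red where higher, blue where lower and open where the adjusted p is not under 0.05. The members' median, -0.70, is left of the median of all tested genes, -0.17, and each other list holds genes on both sides under TMM scaling.

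Loss of Myb was compared with its control in each cell type. In PB 0 of the 10 transcripts were called in either direction, where 0.00762% of all tested genes were called higher and 0.0305% lower, 0.0381% in all. In GC B cells 0 were called, where 0.236% of all tested genes were called higher and 0.0228% lower, 0.259% in all. The smallest adjusted p among the 10 was 1 in both, 0 passed an unadjusted p under 0.05, and DESeq2 and the fit with the date as a block also called 0. In PB the log2 differences ran from -0.11 for Ldha to 0.56 for Pgk1, with a median of 0.00 and 95% intervals that together reached from -0.83 to 1.68. In GC B cells 9 of the 10 were above 0, from -0.15 for Pgk1 to 0.50 for Pgam1, with a median of 0.14 against 0 for all genes and intervals reaching from -1.19 to 1.20. Differences smaller than these intervals could not be detected with 2 pools a group. When pools of the same date were set against each other, 8 of the 10 were higher in Myb KO GC on both dates and the other two differed in sign, where 31.5% of all tested genes were higher on both dates and 36.5% differed in sign. The 8 are not independent, since Aldoa, Eno1, Pkm and Ldha deviated together from pool to pool. Pgam1 had the highest pair differences among them, at 0.51 and 0.48 on the log2 scale, and Hk2 was at 0.24 and 0.10, Ldha at 0.13 and 0.17 and Pkm at 0.09 and 0.20. In PB 4 of the 10 were higher on both dates, 2 lower and 4 mixed, where 30.3%, 29.4% and 40.3% of all tested genes were. The effect of Myb loss in PB minus that in GC B cells was called for 0 of the 10, where 0.00762% of all genes were called, and ran from -0.50 for Pgam1 to 0.70 for Pgk1.

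Between Moz KO and Moz control GC B cells of day 7, 0 of the 10 transcripts were called, and 0% of all tested genes were called in edgeR, with 315 at an unadjusted p under 0.05. With the date as a block 35 genes were called higher and 4 lower, and in DESeq2 8 were higher and 0 lower, with 0 members in each. Ldha was at 355 and 305 CPM in Moz KO and 299 and 428 CPM in Moz control pools, and Pkm at 407 and 389 CPM in Moz KO and 359.7 and 482 CPM in Moz control pools. The knockout pools lay inside the range of the control pools for both. Log2 differences ran from -0.24 for Pgk1 to 0.20 for Slc2a1, with intervals reaching from -1.25 to 0.77. Slc2a1, at 16.4 and 16.3 CPM in Moz KO and 15.3 and 13.2 CPM in Moz control pools, was the 1 member of 10 whose groups did not overlap, where 26.7% of all tested genes did not, so this is no result about Slc2a1. Between the pools numbered 1, 9 of the 10 were higher in Moz KO, and between those numbered 2, 8 were lower, so 7 of the 10 differed in sign between dates, where 53.0% of all tested genes did.

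**Figure D5:**
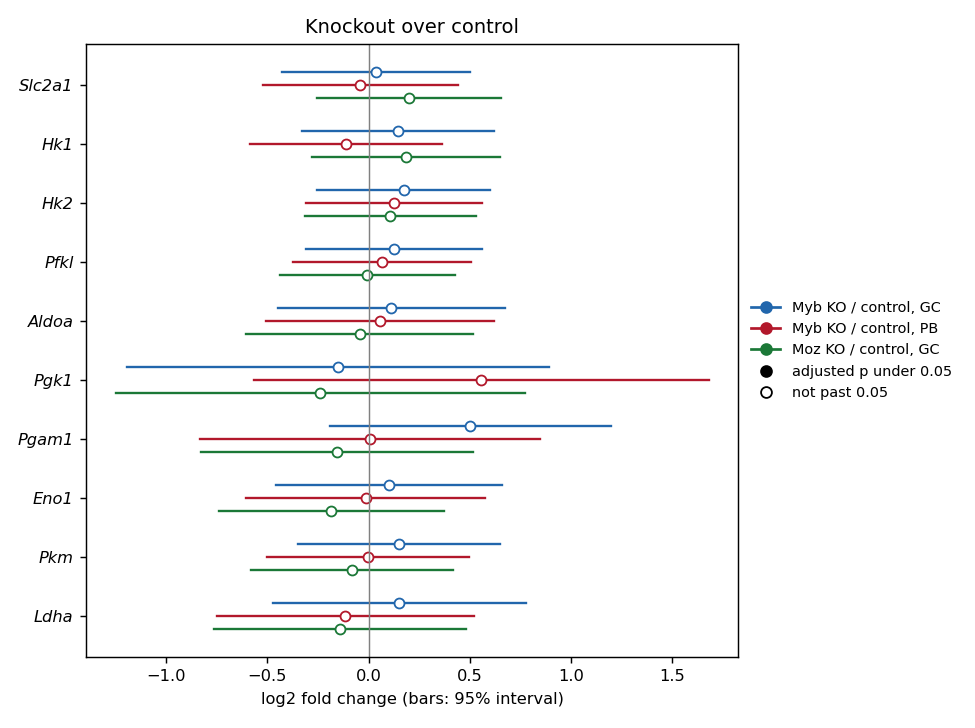
Log2 fold change of knockout over control for each gene, for Myb in GC B cells (blue), Myb in PB (red) and Moz in GC B cells (green), with 95% intervals as bars. All points are open, since 0 passed an adjusted p under 0.05, and all 30 bars cross 0.

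Between control GC B cells of day 12 and day 7, 0 of the 10 were called, where 0.297% of all tested genes were called higher and 1.08% lower, 1.38% in all, and log2 differences ran from -0.15 for Pgam1 to 0.30 for Hk2. Day, experiment, floxed Myb alleles and the AID-cre transgene differ together here and cannot be told apart. Hk2 was at 19.3 and 18.9 CPM on day 12 and 14.4 and 16.6 CPM on day 7, and Slc2a1 at 17.5 and 17.4 CPM on day 12 and 15.3 and 13.2 CPM on day 7. The groups did not overlap for these 2 of the 10, where they did not for 34.1% of all tested genes, and overlapped for the other members.

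Pools of 1 group differed in the same direction for several members. In control GC B cells of day 12, Aldoa, Pgam1, Eno1, Pkm and Ldha were all higher in pool 2 than in pool 1, and the same held in Myb KO GC and in Moz control GC B cells, whereas in Moz KO only Aldoa was. Over the 8 GC libraries, log2 CPM correlated with the mean of the other 9 members at Pearson r = 0.92 for Pkm, 0.90 for Aldoa, 0.85 for Eno1, 0.84 for Ldha and 0.75 for Pgam1. It was 0.41 for Pfkl, 0.35 for Pgk1, 0.31 for Hk2, -0.11 for Hk1 and -0.15 for Slc2a1. These libraries share dates and scaling, and the values describe them only. Of genes outside the list, the log2 CPM of Ddx1 (0.983), Nit2 (0.982), Eif3l (0.980), Eif2b1 (0.980) and Cct3 (0.980) followed the members' mean most closely over all 12 libraries, where the split between PB and GC dominates. Within the 8 GC libraries the closest were Samm50 (0.964), Ttc27 (0.963), Ccnb1 (0.957), Aldoart1 (0.949), a retrocopy of Aldoa whose reads may be Aldoa's own, and Fancf (0.938).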

How the data were processed

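Raw gene counts, per the labels and the submitters' processing notes made with featureCounts on mm10, were deposited by the authors for 12 libraries. The aligner and the handling of strand and of multiply mapping reads were not given in the sources used here. Entrez IDs were given symbols and GRCm38.p6 positions from RefSeq for 25275 of 27179 IDs. The 10 members, the lists and the rule for naming genes (all members, up to 4 called genes per other list with the largest change, 5 genes by likeness) were chosen with earlier results of these data known. Hif1a, Arnt and Txnip were named outside that rule. In edgeR 4.0.16 under R 4.3.3, 6 group means were fitted over all libraries, giving 6 residual degrees of freedom, after filterByExpr (minimum count 10, minimum total 15) and TMM scaling. Tests were two-sided robust quasi-likelihood F tests with Benjamini-Hochberg adjustment over all 13131 genes of a comparison and a threshold of 0.05. The code was tested on simulated data, where the required share of genes with the right sign was lowered after a first run fell short of it. Each value is from a pool of mice, so the edgeR p-values measure spread between pools and not between mice. That spread was estimated over all 6 groups of 2 pools, with information shared across genes. Per the labels, same-numbered knockout and control pools share experiment dates, so numbers pair them, and their deviations correlated at 0.600, 0.453 and 0.361 in Myb GC, Myb PB and Moz GC. DESeq2 1.42.0, RLE scaling, no filter, no immunoglobulin genes, the compared groups alone, the total count as library size, the replicate block and leaving out each pool were tried. Per-kilobase levels used the deposited gene lengths.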

Additional observations from a re-analysis of the deposited data

How the results depend on the processing

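Over every alternative run, 0 members were called in the 3 knockout comparisons, in the difference of the Myb effects and between days. In control PB over GC, the count of members higher was 1 and became 0 without a filter and 0 with the total count as library size, and 0 to 1 when each pool was left out. The count lower was 4, 3 to 5 with pools left out, 5 (Pgk1 added) without a filter, and 10 with the total count. Of the 27 genes named by the rule from other lists, 6 lost their call in at least 1 setting other than the total count. In Myb KO PB over GC, the count higher was 0 and became 1 (Hk1) with the replicate block, and the count lower was 4, 4 to 5 with pools left out, and 10 with the total count. The total count turned Hk1, Hk2 and Pfkl to -1.23, -1.57 and -1.58 in control and to -1.66, -1.80 and -1.80 in Myb KO mice, and Pdk1 to -0.57, Gbe1 to -0.13, Pck2 to -0.28, G6pc3 to -0.97 and Pgm2 to -1.20 in control mice, since it adds the immunoglobulin reads of PB to every denominator. The replicate block changed no call of a member other than Hk1 in Myb KO and Aldoa in both genotypes. Without division by length the share differences, PB minus GC, were 3.60 points for Hk1, -1.31 for Aldoa, -4.72 for Eno1 and 11.9 for Slc2a1, each with an exact adjusted p of 0.0429. The unadjusted exact p of Aldoa, Eno1 and Slc2a1 was 0.0286 with and without division by length. That of Hk1 moved from 0.0571 to 0.0286, and this tie lowered the adjusted p of the other genes, so their passing came from the adjustment. The Ldha share difference, -0.0319 points, ranged from -0.0472 to 0.0140 with pools left out. Member values that passed in neither fit changed sign in 9 of 100 values for Myb in GC, 17 of 100 for Myb in PB and 16 of 100 for Moz. Low counts limit Pgam1 in PB, and sequence shared with gene copies limits Eno1, Pgk1 and Pgam1, and by less Pkm, Ldha and Aldoa.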
